A study of Mus musculus with 6 samples.

Results

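Globins, myoglobin and the enzymes of heme synthesis were followed here through 9 genes, chosen by symbol from the 24411 gene entries of the series: the myoglobin gene Mb, the alpha globin genes Hba-a1 and Hba-a2, the beta globin genes Hbb-b1 and Hbb-b2, and the heme synthesis genes Alas1, Alas2, Fech and Cpox. Their RNA was measured in the soleus (Sol), a slow fiber-rich muscle of the lower leg, of 3 WT and 3 LSD1-mKO mice after voluntary wheel running (VWR). LSD1 (gene symbol Kdm1a) is a histone demethylase. LSD1-mKO mice carried floxed Lsd1 alleles and an ACTA1-CreERT2 transgene, in which the human ACTA1 promoter drives a tamoxifen-dependent Cre in muscle fibers, so that other cells of the muscle keep the gene. The mice called WT also carried floxed Lsd1 but not the CreERT2 transgene, and so were the controls without that deletion. The strain is given as C57BL/6, and the mice of both groups were 8 weeks old at the start, had a wheel in the cage for 38 days with 3 days of familiarization, and received tamoxifen at 75 mg/kg for 5 days. Hence both genotypes ran and both received tamoxifen, and no sedentary mouse is part of the series. Each mouse gave 1 poly(A) RNA library of 75-base single-end reads, with 8940206 to 10989846 estimated counts in WT and 10984664 to 13798059 in LSD1-mKO, of which the 9 genes took between 1.16% and 1.29%. The targeted gene Kdm1a was at 40.5, 38.2 and 33.6 CPM (counts scaled to a common library size by TMM) in WT and at 14.6, 16.6 and 16.6 CPM in LSD1-mKO, without overlap. Its edgeR log2 fold change was -1.23 ± 0.11 (SE), with an adjusted p of 0.016. The call was lost when WT 2 or any LSD1-mKO mouse was left out, and when the replicate number was added to the model. The slow myosin gene Myh7 was at 11233 to 15151 CPM in the 6 mice. Of the fast myosin genes, Myh2 was at 14850 to 26503 CPM and above Myh7 in every mouse, Myh1 was at 2353 to 6072 CPM, and the fastest, Myh4, was at 15.0 to 40.6 CPM.

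Hemoglobin, the oxygen carrier of red blood cells, joins alpha and beta globin chains, each of which holds a heme group. Myoglobin, a single-chain globin made by muscle fibers themselves, binds oxygen inside the fiber and is most abundant in slow and oxidative fibers. Heme is built from glycine and succinyl-CoA by a chain of enzymes that starts and ends in the mitochondrion: ALAS performs the first, rate-limiting step, with ALAS1 made in most tissues and ALAS2 in developing red cells, coproporphyrinogen oxidase (Cpox) acts late in the chain, and ferrochelatase (Fech) inserts the iron. In muscle, heme serves myoglobin and the cytochromes of the respiratory chain.

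The alpha globin genes lie on chromosome 11 (GRCm38, plus strand), Hba-a1 at chr11:32283511-32284465 and Hba-a2 at chr11:32296489-32297298, each with 3 exons. Their coding sequences without the stop codon are 426 bases long and differ at 1 base, C381T (Hba-a1 base, coding position counted from the A of the start codon, Hba-a2 base). The coding bases 341 to 420 are shown for both, from chr11:32284303-32284382 and chr11:32297120-32297199 in the last exon, plus strand, with the base that differs in capitals, because how reads divide between these genes decides the values given below.
Hba-a1: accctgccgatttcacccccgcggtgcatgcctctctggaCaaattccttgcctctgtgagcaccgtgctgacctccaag
Hba-a2: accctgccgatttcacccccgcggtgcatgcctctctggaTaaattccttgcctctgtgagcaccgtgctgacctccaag
Of all 75-base windows, the length of a read, 389 of the 625 in the annotated Hba-a1 transcript (62.2%) and 389 of the 480 in that of Hba-a2 (81.0%) occur in both. A read from such a window cannot be assigned to either gene, and the sum of both genes does not depend on how it was assigned.

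The adult beta globin locus is on chromosome 7, minus strand. GENCODE vM21 annotates it as Hbb-bs (chr7:103826534-103828096) and Hbb-bt (chr7:103812524-103813996), each with 3 exons, and holds no entry under the symbols Hbb-b1 and Hbb-b2, whereas the count table lists all 4. The coding sequences of Hbb-bs and Hbb-bt have 441 bases and differ at 1, C417T (Hbb-bs base first). Coding bases 362 to 441 are shown with that base in capitals, from chr7:103826668-103826747 and chr7:103812659-103812738 in the last exon.
Hbb-bs: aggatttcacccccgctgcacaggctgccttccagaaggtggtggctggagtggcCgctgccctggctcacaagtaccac
Hbb-bt: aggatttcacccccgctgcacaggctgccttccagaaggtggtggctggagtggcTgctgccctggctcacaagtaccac
Windows of 75 bases were shared between Hbb-bs and Hbb-bt for 356 of 554 and 356 of 629 positions (64.3% and 56.6%). Hbb-b2 and Hbb-bt held the same count in all 6 libraries, so that they give 1 independent value and not 2. Their single counts were not whole (107.29 for each in WT 1). With both included, the 4 entries summed to 1058, 3800 and 1644.01 counts in WT and to 2099.99, 2540 and 2909.99 in LSD1-mKO. These sums are close to whole numbers, and how reads were divided among the entries is not known. The 4 entries were therefore also summed as beta globin, with Hbb-b1 and Hbb-b2 as its members here. No window of Mb (1030), Alas1 (3325), Alas2 (1963) or Cpox (3023) occurred in the transcript of another gene, and for Fech 1.60% did.

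Per transcript length, as TPM (counts divided by the length of the longest annotated coding transcript and scaled to the same total in each library), the 7 levels that can be set side by side fell in a wide order. Mb stood first at 22513 TPM on average over the 6 mice, rank 2 of the 24018 genes with a length. Alpha globin followed at 938 TPM and beta globin at 689, and their ranges, 524 to 1626 and 392 to 1223, overlapped. Among the heme synthesis members, Alas1 averaged 98.7 TPM, Fech 54.3, Cpox 22.9 and Alas2 5.94. Alas1 (82.9 to 111) and Fech (48.3 to 61.5) did not overlap on this scale, but with the median length of each gene's transcripts they did (97.5 to 131 and 86.9 to 110). Cpox (18.9 to 26.3) and Alas2 (2.30 to 12.5) overlapped neither each other nor Fech. The ubiquitous form of ALAS had on average 16.6 times the per-length level of the erythroid form, or 29.7 times with median lengths.

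**Figure D1:**
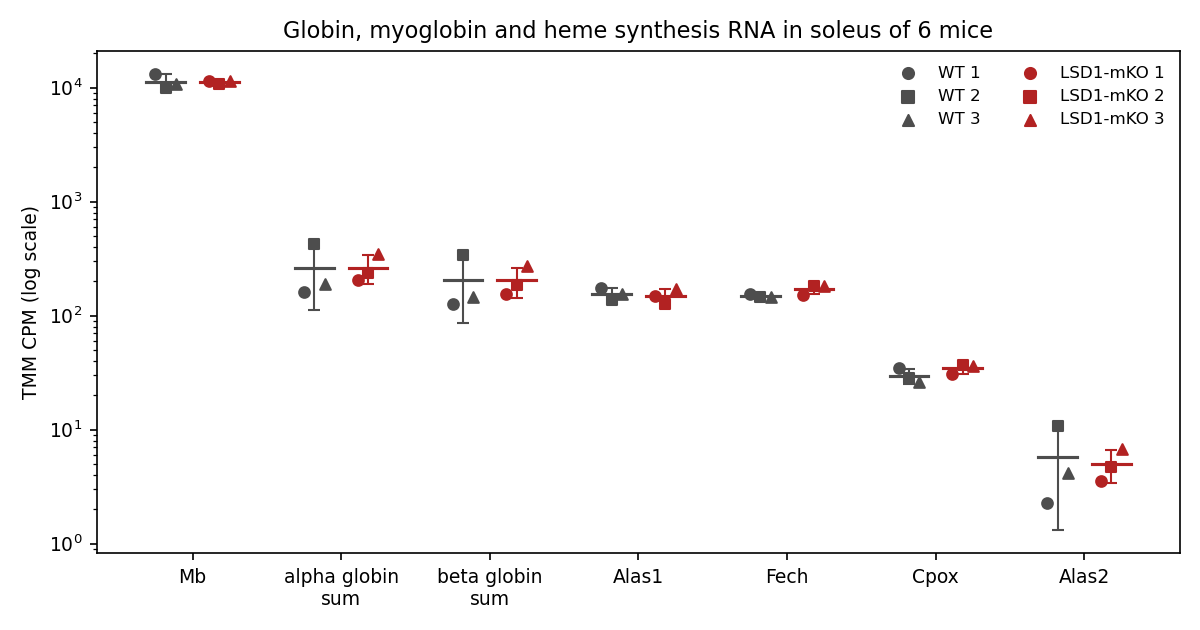
TMM-normalized CPM (log axis) of Mb, the alpha globin sum, the beta globin sum, Alas1, Fech, Cpox and Alas2 in each of 6 mice, with WT in grey and LSD1-mKO in red. Lines are means and bars are SD (n = 3). Mb stays between 9885 and 13294 CPM, while the globin sums and Alas2 spread widely within WT, and the genotypes overlap for every gene shown.

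Within a gene, mice were compared on CPM, in which TMM normalization scales the libraries to a common size. Mb, on chromosome 15 (chr15:77015487-77050670, minus strand), was at 13294, 9885 and 10670 CPM in WT 1, 2 and 3 and at 11489, 10818 and 11399 CPM in LSD1-mKO 1, 2 and 3. The LSD1-mKO mice lay inside the WT range, with means of 11235 ± 364 (SD, n = 3) and 11283 ± 1785. The log2 fold change of LSD1-mKO over WT was -0.01 ± 0.17 (SE), with a 95% confidence interval from -0.39 to 0.38 (edgeR quasi-likelihood test, adjusted p = 0.996).

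Hba-a2 took most of the alpha globin counts in 5 of the 6 mice. It was at 147, 422 and 190 CPM in WT and at 203, 159 and 148 CPM in LSD1-mKO, so that WT 2 stood above all others and the groups overlapped. Its log2 fold change was -0.58 ± 0.35 (SE, adjusted p = 0.781, edgeR).

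Hba-a1 varied far more. It was at 13.5, 5.75 and 0.002 CPM in WT and at 2.57, 78.0 and 202 CPM in LSD1-mKO, with estimated counts of 112, 64 and 0 in WT and of 35, 1077 and 2173 in LSD1-mKO. LSD1-mKO 2 and 3 were far above every WT mouse, and LSD1-mKO 1 was below WT 1 and WT 2. The log2 fold change of 3.95 ± 1.36 (SE) had an unadjusted p of 0.019 and an adjusted p of 0.684 in edgeR, with a 95% confidence interval from 0.84 to 7.06. By the 2-sided exact permutation test of its CPM, p was 0.3, where 3 mice against 3 cannot give less than 0.1. Without LSD1-mKO 3 the log2 fold change was 2.72 and without WT 1 it was 5.03, and the unadjusted p was not under 0.05 without LSD1-mKO 3 or without WT 2.

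The share of alpha globin counts given to Hba-a1 ran from 0% to 57.8% between single mice. It was 8.41% in WT 1 (95% Wilson interval 7.04% to 10.03%), 1.35% in WT 2 (1.06% to 1.71%) and 0% in WT 3, where 0 of 2138 counts allow a share of up to 0.140% by the limit of 3 counts and 0.179% by the Wilson interval. In LSD1-mKO 1 it was 1.26% (0.909% to 1.75%), in LSD1-mKO 2 32.9% (31.3% to 34.5%) and in LSD1-mKO 3 57.8% (56.2% to 59.3%). These intervals and limits cover counting error only, since PCR-amplified reads are not independent molecules, and they leave out the error of assigning shared reads to either gene. The counts of Hba-a1 are not whole numbers (112.36 in WT 1 and 0.02 in WT 3), nor are those of Hba-a2, but their sum is whole, to the 2 decimals deposited, in all 6 libraries.

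**Figure D2:**
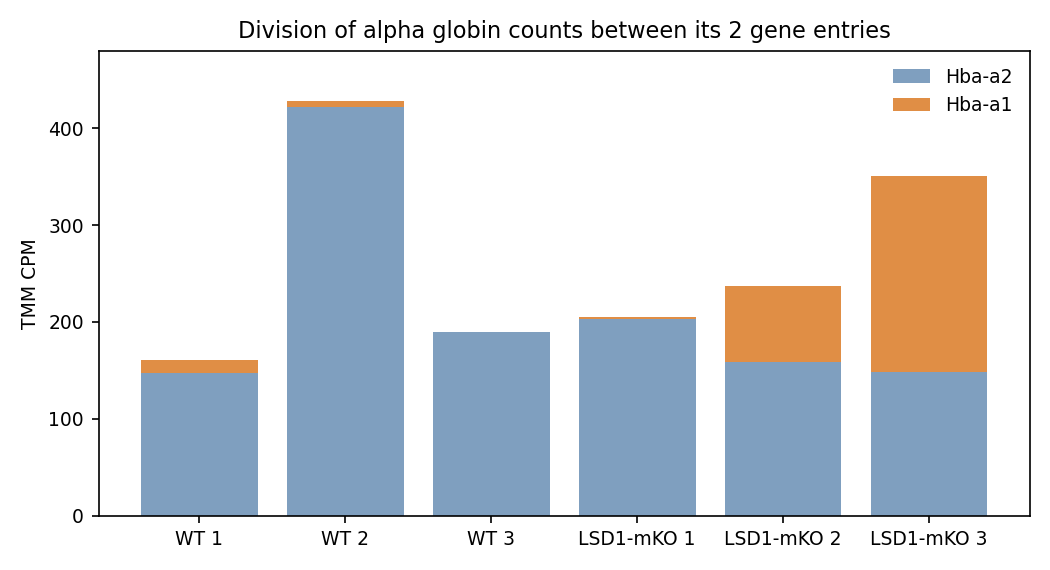
Alpha globin level (TMM CPM) in each mouse as stacked bars, with Hba-a2 below and Hba-a1 above. Hba-a1 is a thin layer in WT 1, WT 2 and LSD1-mKO 1, too small to see in WT 3, and a large layer in LSD1-mKO 2 and 3 (78.0 and 202 CPM), while the full bar is tallest in WT 2 (428 CPM).

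The sum of Hba-a1 and Hba-a2 did not differ detectably between genotypes. It was at 160, 428 and 190 CPM in WT and at 205, 237 and 350 CPM in LSD1-mKO, with the highest and the lowest mouse both in WT. The means were 260 ± 147 and 264 ± 76.3 (SD, n = 3). With the pair replaced by its sum, the log2 fold change was 0.02 ± 0.36 (SE, adjusted p = 0.991, edgeR), with a 95% confidence interval from -0.80 to 0.85, and the exact permutation p was 1. Without WT 2 the value was 0.59, and without LSD1-mKO 3 it was -0.23, and it was also below 0 without WT 1 (-0.23) or WT 3 (-0.16), so that the direction rested on single mice.

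Hbb-b1, the entry with the most beta globin counts in every mouse (57.8% to 78.6% of them), was at 76.2, 220 and 115 CPM in WT and at 89.8, 133 and 184 CPM in LSD1-mKO. Hbb-b2, and with it Hbb-bt, was at 12.9, 25.97 and 12.5 CPM in WT and at 14.5, 12.8 and 23.6 CPM in LSD1-mKO. In both, WT 2 was highest and LSD1-mKO 3 came next. The log2 fold changes were -0.02 ± 0.38 for Hbb-b1 and -0.03 ± 0.32 for Hbb-b2 (SE, edgeR adjusted p = 0.993 and 0.987). Hbb-bs was at 25.5, 69.9 and 6.27 CPM in WT and at 36.5, 25.5 and 39.4 CPM in LSD1-mKO, and its part of the beta globin counts ran from 4.32% in WT 3 to 23.5% in LSD1-mKO 1.

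Beta globin as the sum of its 4 entries was at 128, 342 and 146 CPM in WT and at 155, 184 and 271 CPM in LSD1-mKO, with means of 205 ± 119 and 203 ± 60.3 (SD, n = 3). The groups overlapped, and the log2 fold change was -0.02 ± 0.37 (SE, adjusted p = 0.995, edgeR), with a 95% confidence interval from -0.86 to 0.82. Without WT 2 it was 0.57, without LSD1-mKO 3 it was -0.27, and it was above 0 without LSD1-mKO 1 (0.15) or LSD1-mKO 2 (0.06).

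Alpha and beta globin, whose chains pair in hemoglobin, varied together from mouse to mouse, in WT and LSD1-mKO alike. Alpha globin spanned 2.67 times between WT 1 and WT 2, but there were 0.757 to 0.799 beta globin counts per alpha globin count in all 6 mice. Both sums put the mice in the order WT 2, LSD1-mKO 3, LSD1-mKO 2, LSD1-mKO 1, WT 3 and WT 1. The Pearson correlation of log2(CPM + 1) over the 6 mice was 0.999 (exact permutation p = 0.00139, adjusted p = 0.00833 over 6 relations), and Spearman's rho was 1 (exact permutation p = 0.00278, adjusted p = 0.0167). Without WT 2 and LSD1-mKO 3, the mice farthest from the median of alpha globin, Pearson's r over the other 4 was 0.994.

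Alas2, the erythroid ALAS gene on the X chromosome (chrX:150547375-150570638, plus strand), was low, with 19 to 119 counts a library. It was at 2.29, 10.7 and 4.18 CPM in WT and at 3.55, 4.70 and 6.71 CPM in LSD1-mKO, again with WT 1 lowest, WT 2 highest and LSD1-mKO 3 next. The log2 fold change was -0.24 ± 0.49 (SE, adjusted p = 0.942, edgeR) with a wide 95% confidence interval, from -1.37 to 0.90. With alpha globin its correlation over the 6 mice was 0.969 (exact permutation p = 0.00278, adjusted p = 0.00833), with a rho of 0.943 (exact permutation p = 0.0167, adjusted p = 0.05) and an r of 0.888 without WT 2 and LSD1-mKO 3.

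**Figure D3:**
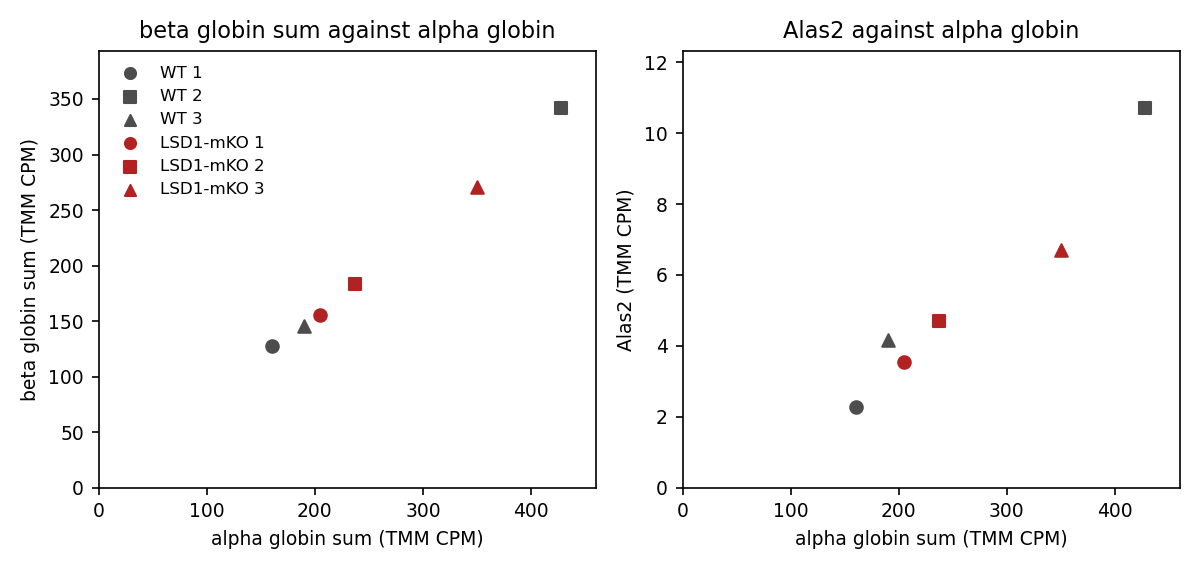
Beta globin (left) and Alas2 (right) against the alpha globin sum in 6 mice, all in TMM CPM on linear axes from 0, with WT in grey and LSD1-mKO in red. Points of both genotypes lie along 1 band in each panel, from WT 1 at the lower end (160 CPM of alpha globin) to WT 2 at the upper end (428 CPM).

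The other 4 relations computed were weaker. Alpha globin correlated at -0.675 with Mb (exact permutation p = 0.147, rho -0.600), at -0.320 with Alas1 (p = 0.515, exact permutation, rho -0.543), at 0.197 with Fech (p = 0.731, exact permutation, rho 0.143) and at -0.018 with Cpox (p = 0.971, exact permutation, rho 0.143), and the adjusted p-values were 0.294 or more. Left out were again WT 2 and LSD1-mKO 3, after which r was -0.782, -0.991, 0.669 and 0.192, so that 3 of these 4 values rest on which mice are used. For the same 4 genes, r was -0.805, -0.949, -0.535 and -0.407 within WT. Within LSD1-mKO it was 0.141, 0.689, 0.700 and 0.662, so that the sign differed between genotypes, with 3 mice in each. Among 10209 genes with a mean of at least 5 CPM, those whose log2(CPM + 1) followed alpha globin most closely over the 6 libraries were Caprin2 (r = 0.977), Ythdc2 (0.976) and Alas2 (0.969).

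In these bulk libraries, fewer cells of a type and less RNA per cell cannot be told apart. Of a list of 19 red blood cell markers other than globins, 17 were analysed here and 14 of them were too low to test. Gata1, Rhag, Tspo2 and Kel, genes of red cell precursors and blood group proteins, had no count in any library. Slc4a1, the band 3 anion exchanger of the red cell membrane, was at 0.0724 to 0.482 CPM. The list's summed level was 176 to 222 CPM in WT and 236 to 276 CPM in LSD1-mKO, nearly all of it from Ank1 and Bpgm, which skeletal muscle also makes. Ank1 (ankyrin 1) was at 168, 174 and 131 CPM in WT and at 193, 215 and 224 CPM in LSD1-mKO, without overlap, with a log2 fold change of 0.42 ± 0.12 (SE), an unadjusted p of 0.0083 and an adjusted p of 0.578 in edgeR. The embryonic globins Hba-x, Hbb-y, Hbb-bh1 and Hbb-bh2 had no count, and Hbq1a, Hbq1b, Adgb and Ngb (neuroglobin) had at most 4 counts a library. Cygb (cytoglobin), a globin of fibroblast-like cells, was at 39.3, 83.5 and 65.6 CPM in WT and at 58.7, 53.1 and 46.0 CPM in LSD1-mKO, with a log2 fold change of -0.26 ± 0.24 (SE, edgeR adjusted p = 0.865).

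The summed levels of leukocyte and endothelial markers were highest in WT 2 as well. The summed level of 9 leukocyte markers was 78.7, 252 and 198 CPM in WT and 154, 81.6 and 117 CPM in LSD1-mKO, with 4 of 9 tested and none at 0 in every library. For 8 endothelial markers it was 639, 871 and 751 CPM in WT and 769, 652 and 692 CPM in LSD1-mKO. WT 1 was thus lowest and WT 2 highest for alpha globin, beta globin, Alas2 and both of these lists. Within LSD1-mKO the order differed, as both lists were highest in LSD1-mKO 1, where alpha globin was lowest of that genotype (205 CPM). Single markers did not all follow their list. Pecam1, Cdh5, Kdr, Esam and Tie1 were highest in WT 2, but Tek was highest in LSD1-mKO 1 (61.6 CPM, with 56.5 in WT 2) and Emcn and Flt1 in LSD1-mKO 3. The part of leukocytes and endothelial cells in the globin values was not tested.

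Promoters are shown for Hba-a2, Hbb-bt and Alas2, as genes of the alpha globin sum, the beta globin sum and the erythroid ALAS, and for Alas1, the other ALAS gene, whose correlation with alpha globin was -0.320. The beta globin sum was compared with alpha globin as a whole, and Hbb-bt alone was not. Each window is the 250 bases before a start site in RefSeq (GRCm38.p6), read along the gene's strand. Capitals mark matches on either strand to AGATAA or TGATAA (forms of the site of GATA factors), CCACCC (the CACCC box of KLF factors), TATAAA (the TATA box), AAGGTCA (a site of estrogen-related receptors) or GCATGCG (the core of the site of nuclear respiratory factor 1). The windows are chr11:32296242-32296491 (plus strand) for Hba-a2, chr7:103813924-103814173 (minus strand) for Hbb-bt, chrX:150547167-150547416 (plus strand) for Alas2 and chr9:106247731-106247980 (minus strand) for Alas1.
Hba-a2: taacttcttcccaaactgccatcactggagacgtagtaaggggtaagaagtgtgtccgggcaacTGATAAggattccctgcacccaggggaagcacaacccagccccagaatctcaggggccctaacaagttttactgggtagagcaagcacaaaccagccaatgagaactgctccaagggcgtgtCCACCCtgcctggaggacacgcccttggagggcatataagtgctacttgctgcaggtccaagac
Hbb-bt: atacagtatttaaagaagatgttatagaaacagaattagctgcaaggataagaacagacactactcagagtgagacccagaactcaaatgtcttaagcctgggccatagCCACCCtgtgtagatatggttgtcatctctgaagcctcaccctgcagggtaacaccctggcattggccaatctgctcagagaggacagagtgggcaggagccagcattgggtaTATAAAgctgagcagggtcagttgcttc
Alas2: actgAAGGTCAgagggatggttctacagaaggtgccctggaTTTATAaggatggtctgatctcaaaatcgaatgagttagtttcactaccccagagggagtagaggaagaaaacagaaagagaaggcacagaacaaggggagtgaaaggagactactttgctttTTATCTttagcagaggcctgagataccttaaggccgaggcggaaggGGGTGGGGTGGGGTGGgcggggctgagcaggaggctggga
Alas1: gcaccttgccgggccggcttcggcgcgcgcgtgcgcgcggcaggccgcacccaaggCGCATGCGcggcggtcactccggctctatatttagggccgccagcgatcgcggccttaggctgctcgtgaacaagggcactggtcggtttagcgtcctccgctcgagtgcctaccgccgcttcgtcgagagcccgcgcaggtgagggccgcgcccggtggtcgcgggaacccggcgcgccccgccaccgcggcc
The windows of Hba-a1 and Hba-a2 are the same 247 bases once they are shifted by 3 bases, so that the 2 genes do not differ there. CCACCC was found at -64 before Hba-a2, at -141 before Hbb-bt and, as 3 matches on the other strand that share a base with the next, at -40, -35 and -30 before Alas2. TGATAA was found at -186 before Hba-a2 and AGATAA at -86 before Alas2. TATAAA lay at -28 before Hbb-bt and, on the other strand, at -209 before Alas2, and AAGGTCA at -246 before Alas2. GCATGCG was found before Alas1 on both strands, in matches that overlap, at -194 and -193. RefSeq gives Alas1 a second window, chr9:106247955-106248204, not printed here, with CCACCC on the other strand at -228. The window of Hbb-bs, also not printed, held AGATAA at -210 and no CCACCC. Members less correlated with alpha globin held such letters too, in windows not printed here. CCACCC was found at -55 and -115 in 2 overlapping windows of Mb, while another window of Mb held no match. TGATAA lay on the other strand at -86 before Cpox. Of 32851 RefSeq promoter windows of this length, 28.1% held CCACCC, 12.4% TATAAA, 9.99% AGATAA, 7.94% TGATAA, 4.08% AAGGTCA and 3.02% GCATGCG. These matches describe the letters of the windows and were not measured as binding in these mice.

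Alas1, on chromosome 9 (chr9:106233455-106248654, minus strand), was at 174, 136 and 155 CPM in WT and at 148, 127 and 170 CPM in LSD1-mKO, so that the groups covered nearly the same range. The log2 fold change was -0.06 ± 0.13 (SE, adjusted p = 0.942, edgeR), with a 95% confidence interval from -0.36 to 0.24. Per Alas2 count there were 76.1 Alas1 counts in WT 1 but 12.7 in WT 2, and 25.4 to 41.7 in the other 4 mice. The genes with the closest pattern to Alas1 over the 6 libraries were Apmap (r = 0.992), Smarca5 (0.982) and Ppara (0.977), and to Mb they were Zfp697 (0.999), Pus3 (0.996) and Ube2g2 (0.989). These are the highest of 10210 genes, given as a description.

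The late enzymes Fech and Cpox put the 6 mice in 1 and the same order, with LSD1-mKO 2 and 3 on top. Fech, on chromosome 18 (chr18:64452914-64490251, minus strand), was at 155, 147 and 146 CPM in WT and at 153, 183 and 182 CPM in LSD1-mKO. Cpox, on chromosome 16 (chr16:58670292-58717636, plus strand), was at 34.7, 28.1 and 25.9 CPM in WT and at 30.5, 36.8 and 36.3 CPM in LSD1-mKO. For both genes LSD1-mKO 1 fell below WT 1, so that the groups overlapped. The log2 fold change was 0.21 ± 0.10 for Fech (SE, unadjusted p = 0.058, adjusted p = 0.766, edgeR) and 0.23 ± 0.13 for Cpox (SE, unadjusted p = 0.123, adjusted p = 0.777, edgeR). Without WT 1 the value for Cpox was 0.36 and without WT 3 it was 0.14. The confidence intervals for Fech and Cpox reached from -0.01 to 0.43 and from -0.08 to 0.53.

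Other genes of the pathway between ALAS and ferrochelatase gave no call either. Alad, Uros, Urod and Ppox encode enzymes on the way from aminolevulinic acid to the porphyrin ring and its oxidation. Ppox was at 11.3, 13.5 and 13.6 CPM in WT and at 9.77, 11.9 and 11.4 CPM in LSD1-mKO. The log2 fold changes were -0.22 ± 0.14 for Ppox, -0.11 ± 0.09 for Alad, -0.07 ± 0.09 for Urod and 0.11 ± 0.11 for Uros (SE). Their groups overlapped, and the edgeR adjusted p-values were 0.781 to 0.891. Per length of the longest transcript, Alas1, Urod and Alad had the highest levels of these genes (mean TPM of each genotype 70.8 or more). With median lengths Fech, at 90.4 TPM in WT and 104 in LSD1-mKO, came above Urod (81.6 and 76.8) and Alad (49.9 and 45.9).

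**Figure D4:**
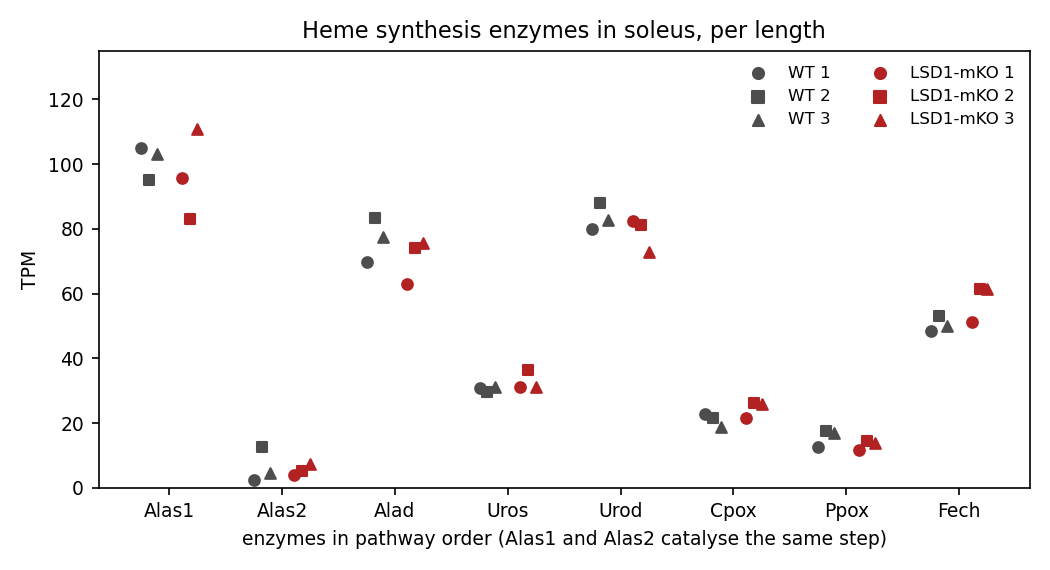
TPM of 8 heme synthesis genes in pathway order in each of 6 mice, on a linear axis, with WT in grey and LSD1-mKO in red. Alas2 lies at 2.30 to 12.5 TPM beside Alas1 at 82.9 to 111 TPM, and the genotypes overlap for every gene shown.

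Counted over the members, 0 of 9 passed the adjusted threshold of 0.05 in edgeR, where 0.0156% of the 12828 genes tested did (1 higher and 1 lower), and DESeq2 and limma voom called 0 as well. At an unadjusted p under 0.05 there was 1 of 9 in edgeR, Hba-a1, against 6.40% of all genes tested, and there were 0 of 9 with DESeq2 and with limma voom. The CPM of the genotypes did not overlap for 0 of 9 members, against 12.7% of all genes tested. The median log2 fold change of the members was -0.02, as was that of all genes tested.

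**Figure D5:**
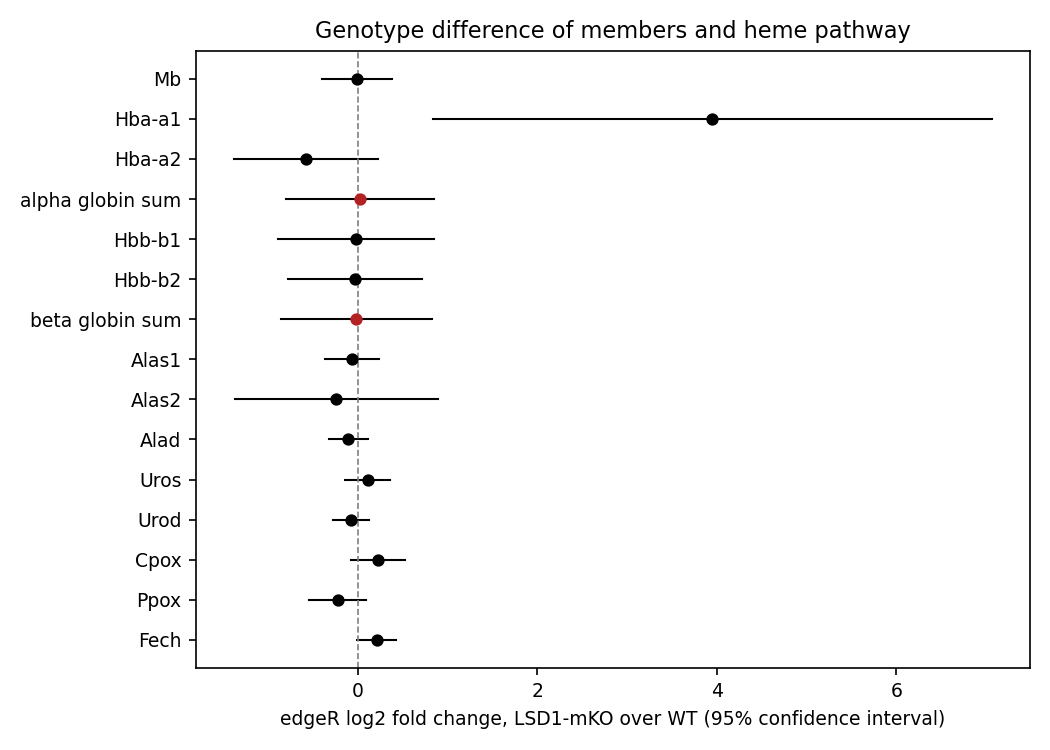
EdgeR log2 fold change of LSD1-mKO over WT with its 95% confidence interval for the members, the 2 globin sums (red) and Alad, Uros, Urod and Ppox. All intervals include 0 except that of Hba-a1 (0.84 to 7.06), whose sum with Hba-a2 lies at 0.02.

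Genes around heme were followed through 5 lists that hold 58 genes, of which 56 were analysed here and tested. None passed the adjusted threshold in edgeR, DESeq2 or limma voom. At an unadjusted p under 0.05 in edgeR, 0 were higher and 2 were lower, Ftl1 and Aco1. Of all genes tested, 6.40% passed that level in either direction. The genotypes did not overlap for 7 of the 56 genes (12.5%), 3 of them higher in LSD1-mKO (5.36%, where 6.62% of all genes tested were), and the median log2 fold change of the 56 was -0.02.

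Iron and porphyrin supply to the mitochondrion was covered by 15 genes, whose median was -0.05 on the log2 scale, and 0 of them had an unadjusted p under 0.05 in edgeR. Slc25a37 (mitoferrin 1, the mitochondrial iron importer) was at 13.98, 21.2 and 19.8 CPM in WT and at 18.8, 24.9 and 21.2 CPM in LSD1-mKO (log2 fold change 0.23 ± 0.17, SE). Tfrc, the transferrin receptor that brings iron into cells, varied the most, with 114, 210 and 309 CPM in WT and 225, 48.1 and 163 CPM in LSD1-mKO (-0.54 ± 0.52). Abcb10 (0.09 ± 0.13) and Slc11a2, the iron transporter DMT1 (-0.17 ± 0.11), lay between.

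Heme breakdown, heme transport and iron storage were covered by 11 genes, with a median of 0.03 on the log2 scale. Ftl1, the light chain of the iron store ferritin, was at 267, 327 and 270 CPM in WT and at 243, 241 and 208 CPM in LSD1-mKO, without overlap, with a log2 fold change of -0.32 ± 0.11 (SE), an unadjusted p of 0.020 and an adjusted p of 0.698 in edgeR. The heavy chain gene Fth1, at 1825, 1611 and 1650 CPM in WT and 1887, 1875 and 1848 CPM in LSD1-mKO, was on the other side without overlap (0.14 ± 0.11, adjusted p = 0.824, edgeR). Hmox2, the constitutive heme oxygenase, was at 40.4, 40.1 and 39.5 CPM in WT and at 45.5, 42.5 and 45.7 CPM in LSD1-mKO, also without overlap (0.16 ± 0.08, adjusted p = 0.767, edgeR). Slc40a1, the iron exporter ferroportin (0.50 ± 0.29), and Blvrb, a biliverdin reductase (-0.27 ± 0.23), overlapped between genotypes.

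Heme insertion and heme-carrying subunits of the respiratory chain were covered by 7 genes, from Hccs, which attaches heme to cytochrome c, to Cox15, which makes heme A. Their median was 0.06, and none reached an unadjusted p under 0.05 in edgeR. The ends of the list were Sdhc (0.11 ± 0.12) and Hccs (0.11 ± 0.12) on the higher side and Cox15 (-0.04 ± 0.08) and Cyc1 (-0.03 ± 0.11) on the lower.

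Among 14 regulators that sense heme, iron or oxygen or act on heme synthesis, the median was -0.01. Aco1, the iron-regulatory protein 1, was at 34.6, 41.8 and 39.3 CPM in WT and at 32.6, 34.0 and 31.9 CPM in LSD1-mKO, without overlap (-0.23 ± 0.10, SE, unadjusted p = 0.041, adjusted p = 0.766, edgeR). Ppargc1a, encoding the coactivator PGC-1α of mitochondrial genes, was at 79.7, 48.2 and 59.0 CPM in WT and at 143, 58.3 and 75.5 CPM in LSD1-mKO (0.57 ± 0.32), and Nr1d1, encoding the heme-binding repressor REV-ERBα, was at 55.2, 147 and 78.3 CPM in WT and at 180, 97.6 and 120 CPM in LSD1-mKO (0.50 ± 0.35). Bach1, a repressor that heme inactivates, was at -0.16 ± 0.13. Outside the rule for named genes and chosen after their values were seen, Abcb6, Hif1a (lower) and Nrf1 (higher) also had genotypes that did not overlap, at -0.16 ± 0.09, -0.14 ± 0.09 and 0.21 ± 0.12, with edgeR adjusted p-values of 0.777 to 0.781.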

How the data were processed

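Poly(A) RNA of Sol muscle was sequenced by the authors on a NextSeq 500. The reads were aligned to mm10 with STAR, per the labels and the study's methods, and the deposited values are estimated counts per gene, which the authors left unnormalized. The counting tool and the annotation are not given in the sources used here. Between 8.33% and 9.94% of a library's values are not whole. A second table holds the authors' own DESeq2 comparison (mean, log2 fold change, SE, statistic and p-values) and was not used. Columns were matched to mice by the number that opens each sample's title, and 0 columns lacked a sample.

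Estimated counts were rounded and fitted with edgeR 4.0.16 in R 4.3.3 over all 6 libraries (TMM, filterByExpr by genotype, quasi-likelihood test, Benjamini-Hochberg over 12828 genes, threshold 0.05). The functions were tested on simulated data. DESeq2 1.42.0, limma 3.58.1 (voom), other scalings and filters, a replicate block and each mouse left out were alternatives. CPM used TMM library sizes, and an exact permutation test of the CPM was added for each single gene, over the 10 ways of dividing the mice into 3 and 3. With 3 mice a group, intervals are wide. TPM used the longest coding transcript in GENCODE vM21 (found for 23350 symbols as written and for 668 by a synonym, not for 393; these lengths cover 99.7% of the counts), for the globin sums the mean of both genes. Promoters came from RefSeq, which matched Mb, Hba-a1, Hba-a2, Alas1, Alas2 and Cpox among the members, and motif letters were chosen with the sequences in view.

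Members and lists were chosen with earlier results of these data known. Named were the members, the heme synthesis genes (1 is not reported here), all listed globins, Kdm1a, from each list the 2 highest and 2 lowest fold changes at a mean of at least 5 CPM, and the 3 genes most alike Mb, Alas1 and alpha globin.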

Additional observations from a re-analysis of the deposited data

How the results depend on the processing

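No member passed the adjusted threshold under any alternative run. Of 164 comparisons of a log2 fold change with its main value, 133 kept their direction and 31 turned, all without a call, and 3 mice a group limit the precision. The genes called higher (1) and lower (1) were 33 and 9 with DESeq2, 2 higher with limma voom, 8 and 3 with no filter on low counts, and 1 to 2 and 0 to 1 with 1 mouse left out (2 higher without WT 1; 0 lower without WT 2 or any LSD1-mKO mouse). With a replicate block 0 genes were lower. Mice of the same number did not deviate together (correlations -0.416, -0.090 and -0.172), and the labels name no pairing, but these values cannot exclude a weak one. The block gave 0.0964 for beta globin, 0.0051 for Mb, 0.0631 for Hbb-b1 and 0.0116 for Hbb-b2, and called no member. Alpha globin was at -0.0346 with library size alone. Mb was at 0.0012 with DESeq2 and with its size factors, at 0.00040 with limma voom and at 0.0079 with no filter. Hbb-b1 and beta globin were at 0.0701 and 0.105 with limma voom and at 0.0019 and 0.0057 with no filter. Leaving out each mouse in turn moved the log2 fold change from -0.231 to 0.593 for alpha globin, -0.275 to 0.573 for beta globin, -0.0926 to 0.131 for Mb, -0.848 to 0.0132 for Hba-a2, -0.304 to 0.505 for Hbb-b1, -0.331 to 0.409 for Hbb-b2, -0.170 to 0.0443 for Alas1, -0.589 to 0.589 for Alas2, 0.171 to 0.291 for Fech, 0.140 to 0.355 for Cpox and 2.72 to 5.03 for Hba-a1. At least 10 counts in every library left Hba-a1 out of the test. At an unadjusted p under 0.05 there were 4 of 9 members without WT 1 (Cpox, Fech, Hba-a1 and Hba-a2). In that run 841 of all 13079 genes tested were higher and 1044 lower, against 452 and 369 of 12828 in the main run. There were 2 members (Fech and Hba-a1) without LSD1-mKO 1, where 451 genes were higher and 503 lower of 12984. The same 2 passed with upper quartile scaling, where 454 genes were higher and 390 lower of 12828. There were 0 members without WT 2 or LSD1-mKO 3, with DESeq2, with limma voom and with the replicate block. With median transcript lengths, the 7 levels of Mb, the globin sums, Alas1, Fech, Cpox and Alas2 kept their order, but Fech moved above Urod and Alad. The cause of these changes was not tested.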

Other observations

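Fiber genes give the muscle background of Mb. The summed level of 8 slow fiber genes was 45375, 36179 and 40814 CPM in WT and 44491, 48181 and 39425 CPM in LSD1-mKO, and that of 9 fast fiber genes was 77091, 53407 and 63029 CPM in WT and 65039, 53311 and 65374 CPM in LSD1-mKO. None of the 17 passed the adjusted threshold in edgeR, DESeq2 or limma voom, and at an unadjusted p under 0.05 there were 0 in edgeR and limma voom and 1 in DESeq2. Their median log2 fold changes were 0.16 and -0.04. At the ends of the lists stood Atp2a2, the slow calcium pump (0.31 ± 0.18, SE), Tpm3 (0.22 ± 0.17), Myl3 (0.04 ± 0.14) and Myh7 (-0.05 ± 0.18), and Myh1 (0.18 ± 0.31), Tnnt3 (0.06 ± 0.18), Myh2 (-0.25 ± 0.22) and Myh4 (-0.36 ± 0.34).

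The 4 leukocyte markers tested were all fitted lower in LSD1-mKO, where 45.2% of all genes tested were fitted higher. These 4 had a median of -0.60 on the log2 scale, from Ptprc (-0.52 ± 0.46) to Adgre1, the macrophage marker F4/80 (-0.88 ± 0.49). Lyz2 (-0.57 ± 0.35) and Csf1r (-0.62 ± 0.46) lay between them. The genotypes overlapped for each, and WT 1 was the lowest mouse for Ptprc, Csf1r and Adgre1, but LSD1-mKO 2 for Lyz2. None of the 4 passed in edgeR, DESeq2 or limma voom, also not at an unadjusted p under 0.05. Endothelial Kdr (0.12 ± 0.21), Emcn (0.06 ± 0.13), Cdh5 (-0.17 ± 0.16) and Tie1 (-0.16 ± 0.12) and the platelet gene Pf4 (-0.33 ± 0.27) did not pass either. Platelet markers summed to 12.1 to 16.8 CPM in WT and 9.84 to 14.1 CPM in LSD1-mKO.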
